A study of Mus musculus with 24 samples.

Results

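Splicing regulators of muscle differentiation are described here through 10 genes: the muscleblind-like genes Mbnl1, Mbnl2 and Mbnl3, the CELF genes Celf1 and Celf2, the RBFOX gene Rbfox2, the polypyrimidine tract binding protein genes Ptbp1 and Ptbp2, the RNA-binding motif gene Rbm24, and Qk, which encodes quaking. They were taken by name, 10 of the 35968 genes to which the listed transcripts were assigned, and all 10 were among the 14577 genes that passed the filter on low counts. RNA came from C2C12, a mouse myoblast line that was kept undifferentiated and below confluence in serum-containing medium. The 4 groups were siFem1b/Keap1, given siRNAs against Fem1b and Keap1 together, siFem1b, given that against Fem1b, siKeap1, given that against Keap1, and siCont, given a non-targeting siRNA. All were harvested 48 h after transfection, and each had 3 libraries of poly(A)-selected RNA that were sequenced in 2 runs, added here. FEM1B and KEAP1 are substrate receptors of ubiquitin ligases, FEM1B of the CUL2 class and KEAP1 of the CUL3 class, and KEAP1 is best known for marking the transcription factor NRF2 for degradation. Each receptor was depleted with 1 siRNA, so the depletion and any effect of the same siRNA on other transcripts cannot be told apart. The labels do not say whether the 3 libraries of a group came from separate cultures. A p-value here sets a difference between groups against the spread of the libraries, part of which may be technical. If the libraries of a group share a culture, that spread leaves out variation between cultures, and the p-values may be too small. In such bulk samples, fewer cells that express a gene and less RNA per cell cannot be told apart.

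Alternative splicing is remodelled when myoblasts leave the cell cycle and fuse into myotubes. In textbook accounts, PTB proteins bind pyrimidine-rich stretches and mostly hold exons out of the mRNA in proliferating cells, while muscleblind-like, RBFOX and RBM24 proteins promote the exon choices of mature muscle, and CELF proteins often act on the same exons as muscleblind-like proteins in the opposite direction. Quaking binds introns of muscle transcripts and changes their splicing as well. Many of these proteins also adjust their own or each other's mRNA, through exons whose skipping or inclusion brings a premature stop codon and so nonsense-mediated decay (NMD), the pathway that degrades such mRNA.

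The libraries held 31883767 to 42980937 estimated counts, and levels are given below as CPM, the counts of a gene scaled to a common library size after TMM normalisation. Keap1 stood at 8.59 to 11.1 CPM in the libraries given its siRNA and at 56.7 to 63.3 CPM in the others, and Fem1b at 11.6 to 14.2 CPM with its siRNA and at 94.1 to 106 CPM without. All 8 myoblast markers examined, among them Myod1, Myf5 and Des, averaged at least 1 CPM, and their sum was 1902 to 1957 CPM in siFem1b/Keap1, 2248 to 2368 in siFem1b and 1537 to 1642 in siKeap1, against 1815 to 1840 in siCont. Of 8 myotube markers 3 averaged at least 1 CPM, and their sum was 11.5 to 13.4 CPM in siFem1b/Keap1, 85.0 to 95.4 in siFem1b and 2.51 to 3.40 in siKeap1, against 5.18 to 6.50 in siCont. Of 8 neuronal markers 2 averaged at least 1 CPM, and their sum was 319 to 330, 308 to 313 and 311 to 331 CPM in siFem1b/Keap1, siFem1b and siKeap1, against 229 to 236 in siCont. Of 5 markers each of epithelial, smooth muscle, leukocyte and endothelial cells 3, 4, 2 and 0 averaged at least 1 CPM, and no marker of these lists was at 0 counts in every library. The epithelial sum was 38.4 to 40.7 CPM in siFem1b/Keap1, 14.8 to 17.1 in siFem1b and 61.0 to 65.9 in siKeap1, against 9.36 to 11.1 in siCont, and the leukocyte sum 19.6 to 20.8, 11.4 to 12.4 and 17.4 to 18.9 CPM in siFem1b/Keap1, siFem1b and siKeap1, against 11.1 to 12.8 in siCont. The endothelial sum was 1.72 to 2.14, 1.08 to 1.53 and 1.22 to 1.77 CPM in siFem1b/Keap1, siFem1b and siKeap1, against 0.856 to 0.913 in siCont, and the smooth muscle sum 868 to 952, 766 to 886 and 804 to 951 CPM in siFem1b/Keap1, siFem1b and siKeap1, against 583 to 626 in siCont. Tubb3 made up most of the neuronal sum, Acta2 of the smooth muscle sum and Krt14 of the epithelial sum. In siFem1b/Keap1, siFem1b, siKeap1 and siCont, Tubb3 averaged 280, 255, 299 and 211 CPM and Acta2 806, 703, 745 and 455. Krt14 averaged 32.1, 12.9, 62.4 and 9.70 CPM. The other epithelial markers were higher in siFem1b/Keap1 than in siKeap1, among them Cdh1 (4.03 against 0.206 CPM) and Krt8 (3.27 against 0.595). What part these differences in markers have in the values below was not tested.

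With both receptors depleted, the PTB genes, Celf1, Mbnl1, Mbnl3 and Qk were lower than in siCont, Mbnl2, Celf2 and Rbm24 were higher, and Rbfox2 did not pass the test. Of the 10 regulators, 9 passed the threshold of an adjusted p of 0.05 in siFem1b/Keap1 against siCont, where 67.5% of all tested genes did, with 3 higher (33.8% of all genes) and 6 lower (33.7%). In siFem1b against siCont 9 passed (62.1%), with 4 higher (30%) and 5 lower (32.1%). In siKeap1 against siCont 7 passed (42.2%), with 1 higher (18.4%) and 6 lower (23.8%). With so many genes changed, the number called among the 10 is to be read against these shares. In siFem1b/Keap1 against siKeap1 all 10 passed (63.6%), with 3 higher (32%) and 7 lower (31.6%), and in siFem1b against siKeap1 7 passed (63.9%), with 4 higher (32.1%) and 3 lower (31.8%). In siFem1b/Keap1 against siFem1b 8 passed (43.1%), 0 higher (21.3%) and 8 lower (21.8%). Beside these 0 higher calls of edgeR, 1 regulator was higher at an unadjusted p under 0.05, and DESeq2 and limma-voom called 0. Scaling by library totals alone gave 1 higher and 7 lower there. The comparisons with siCont share its libraries, so their counts are not independent.

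Most changes were small. Those of at least 1.5-fold that passed numbered 4 in siFem1b/Keap1 against siCont (29.4% of all genes), namely Mbnl3, Ptbp2, Qk and Rbm24, 2 in siFem1b (21.1%), namely Mbnl3 and Rbm24, and 1, Rbm24, in siKeap1 (10.1%). They numbered 3 in siFem1b/Keap1 against siKeap1 (23.8%), 2 in siFem1b/Keap1 against siFem1b (9.36%) and 3 in siFem1b against siKeap1 (24.7%). The median size of the log2 fold change, without sign, was 0.46 among the 10 regulators and 0.37 among all genes in siFem1b/Keap1, 0.34 and 0.31 in siFem1b, and 0.25 and 0.19 in siKeap1. The libraries of the 2 groups did not overlap for all 10 regulators in siFem1b/Keap1 against siCont (70.3% of all genes), for 8 in siFem1b (63.6%) and for 8 in siKeap1 (51.2%). In siFem1b/Keap1 the same held for 10 against siKeap1 (69.4%) and 8 against siFem1b (50.8%), and in siFem1b for 8 against siKeap1 (67.6%).

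**Figure D1:**
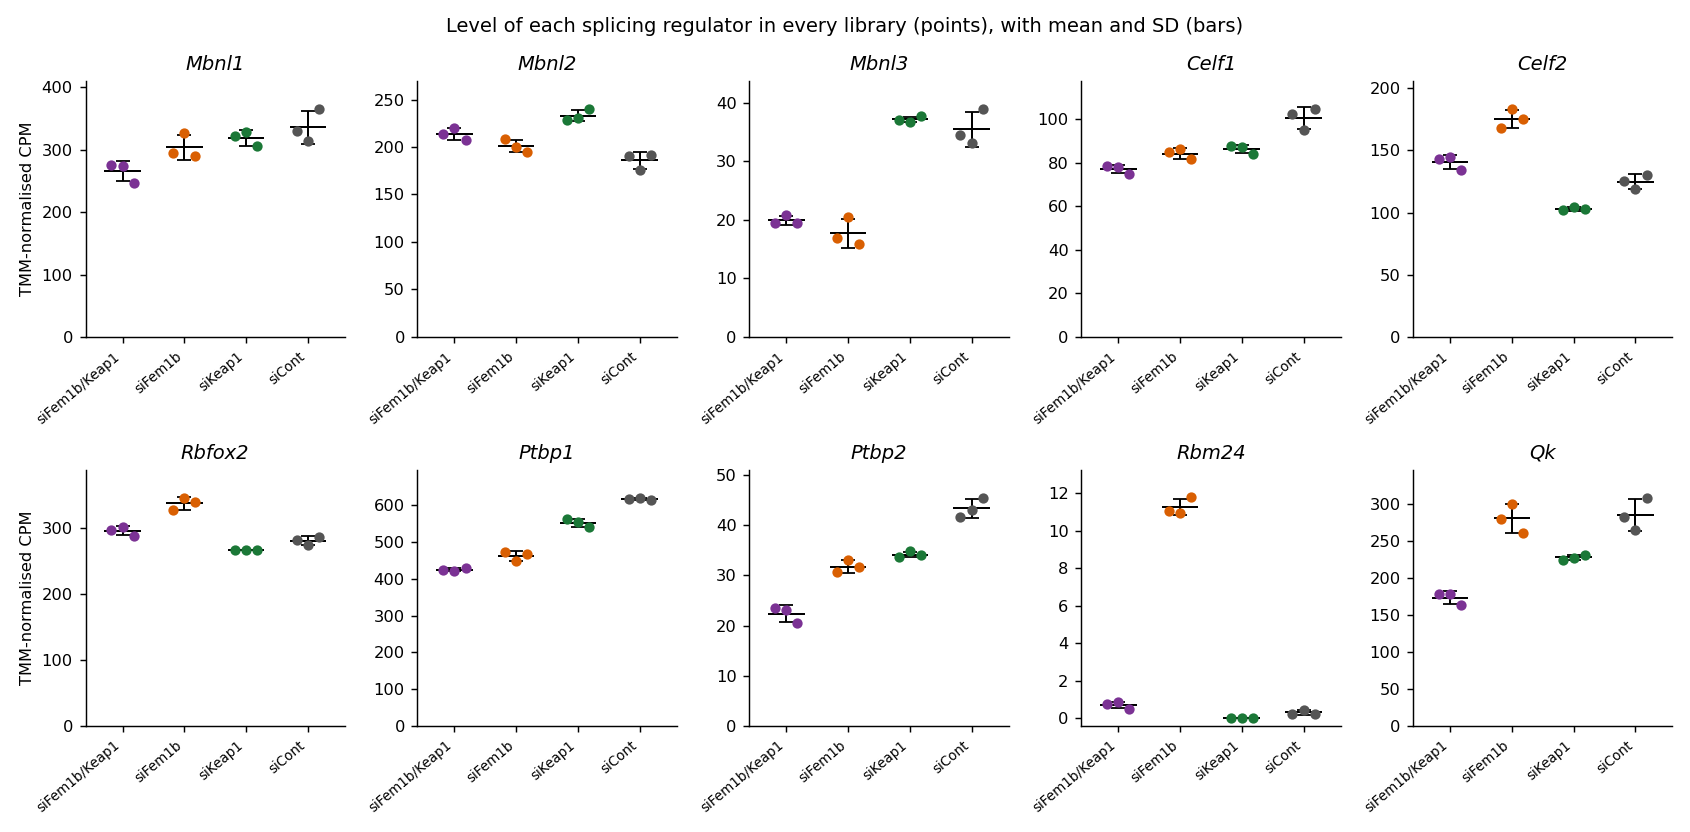
Levels of the 10 splicing regulators in every library, in TMM-normalised CPM (vertical axes, each from about 0), for siFem1b/Keap1, siFem1b, siKeap1 and siCont from left to right; points are libraries, the horizontal bar is the mean and the whiskers are the SD of 3 libraries. Ptbp1, Ptbp2 and Celf1 are highest in siCont, Mbnl3 is low in both groups given the siRNA against Fem1b, Qk is low in siFem1b/Keap1, and Rbm24 stands at 11 to 11.8 CPM in siFem1b and under 1 CPM elsewhere.

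Per length of transcript, where genes can be compared with each other, Ptbp1 was the most abundant regulator in siCont, at 369 length-scaled CPM, followed by Qk (161), Mbnl1 (145), Mbnl2 (109) and Rbfox2 (106). Celf2 stood at 54.7, Ptbp2 at 32, Celf1 at 29.4 and Mbnl3 at 16.2 on this scale. Rbm24, at 0.323, was barely detected. In siFem1b, Rbm24 reached 6.47 length-scaled CPM, still below Mbnl3 at 8.501 in the same libraries.

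The PTB genes were lower in every depleted group than in siCont. Ptbp1 encodes the PTB protein of most dividing cells and lies on chromosome 10 (GRCm38, plus strand, 79854427 to 79864771). It had 424, 422 and 429 CPM in the siFem1b/Keap1 libraries, 474, 448 and 468 CPM in siFem1b and 563, 555 and 541 CPM in siKeap1, against 617, 619.8 and 616 CPM in siCont. No depleted library reached the lowest siCont library, and the siFem1b/Keap1 libraries lay below those of every other group. The level was 1.45-fold lower in siFem1b/Keap1 than in siCont (log2 fold change -0.54, SE 0.034, adjusted p = 7.6e-11), 1.33-fold lower in siFem1b (log2 fold change -0.42, SE 0.034, adjusted p = 4.8e-09) and 1.117-fold lower in siKeap1 (log2 fold change -0.16, SE 0.034, adjusted p = 0.00090). The siFem1b/Keap1 level was also below siKeap1 (1.301-fold, adjusted p = 1.4e-08) and below siFem1b (1.09-fold, adjusted p = 0.0067; with the first of the runs by itself 0.051). Plppr3 overlaps Ptbp1 on the other strand, and without stated strand their reads may mix, which was not tested. As assigned, Plppr3 averaged 7.82 CPM over the libraries and Ptbp1 515 CPM.

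Ptbp2 encodes the neuronal PTB paralogue, which PTBP1 is known to keep low, and lies on chromosome 3 (GRCm38, minus strand, 119718742 to 119784466). Its libraries stood at 23.5, 23.2 and 20.5 CPM in the siFem1b/Keap1 libraries, 30.6, 33.1 and 31.7 CPM in siFem1b and 33.7, 34.8 and 34 CPM in siKeap1, against 41.7, 43.1 and 45.4 CPM in siCont. In CPM the groups did not overlap in any of these comparisons, and Ptbp2 was the regulator with the largest drop in siFem1b/Keap1. It was 1.94-fold lower there than in siCont (log2 fold change -0.95, SE 0.056, adjusted p = 2.0e-11), 1.37-fold lower in siFem1b (log2 fold change -0.45, SE 0.054, adjusted p = 6.5e-07) and 1.27-fold lower in siKeap1 (log2 fold change -0.34, SE 0.054, adjusted p = 3.6e-05). The siFem1b/Keap1 level was 1.42-fold below siFem1b (adjusted p = 7.9e-07) and 1.52-fold below siKeap1 (adjusted p = 1.9e-08). Between siFem1b and siKeap1 the difference missed the threshold (log2 fold change -0.11, 95% interval -0.23 to 0.02, adjusted p = 0.10). Without siFem1b replicate 2 it passed (adjusted p = 0.031), as it did without siFem1b/Keap1 replicate 3 (adjusted p = 0.046). Per length of transcript, Ptbp2 averaged 22.4 length-scaled CPM in siFem1b/Keap1, 27.5 in siFem1b and 26.2 in siKeap1, against 32.0 in siCont. On that scale siFem1b (23.7 to 30.9) overlapped siCont (30.2 to 33.0). Mbnl3 (9.44 against 16.2) and Qk (97.8 against 161) then fell further in siFem1b/Keap1, in proportion to siCont, than Ptbp2.

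Both PTB genes hold an exon of 34 bases inside the coding sequence, shown here because its skipping is the known switch by which PTB proteins limit their own and each other's mRNA. Its length is not a multiple of 3, so skipping shifts the reading frame. The exons, read from GENCODE M21 transcripts 5′ to 3′ on the strand of the gene, are at chr10:79862014-79862047 (plus strand) in Ptbp1 and at chr3:119724612-119724645 (minus strand) in Ptbp2, both in GRCm38. They share 26 of 34 bases (76.5%), and capitals mark the bases that differ.
Ptbp1 34-base exon: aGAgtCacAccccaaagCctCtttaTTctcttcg
Ptbp2 34-base exon: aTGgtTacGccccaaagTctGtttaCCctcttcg
Among the transcripts that span the exon, 2 that lack it are annotated as targets of NMD in each gene, and none of those that hold it is.

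Inclusion of an exon was taken as the abundance, counts over effective length, of the transcripts that hold it over that of all transcripts that span it. It rests on the authors' split of reads between transcripts and not on reads across junctions, and is given as a description, since an exact permutation of 3 against 3 libraries cannot go below 0.10. Inclusion of the Ptbp1 exon was 90.7, 89.5 and 91.2% in siFem1b/Keap1, 88.1, 90.7 and 88.2% in siFem1b and 88.2, 85.95 and 88.6% in siKeap1, against 84.9, 84.8 and 86.9% in siCont. All 3 siFem1b/Keap1 and all 3 siFem1b libraries lay above the siCont libraries, and siKeap1 overlapped siCont. Inclusion of the Ptbp2 exon was 56.9, 52.96 and 60.9% in siFem1b/Keap1, 66.7, 72.5 and 62.8% in siFem1b and 65.4, 73.1 and 72.3% in siKeap1, against 68.5, 70.5 and 75.2% in siCont. The siFem1b/Keap1 libraries lay below those of all other groups, but the gap depends on short transcripts. With transcripts of at least 1000 bases alone, a choice made after the values were seen, inclusion averaged 76.9% in siFem1b/Keap1, 81.2% in siFem1b and 78.5% in siKeap1, against 77.3% in siCont.

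Transcript shares of Ptbp1 passed the test in siFem1b/Keap1, a call that was lost under several alternatives. Shares were tested with limma on the log2 ratio of a transcript's counts to those of the rest of its gene, and the gene passed in siFem1b/Keap1 against siCont (adjusted p = 0.019) but not in siFem1b (adjusted p = 0.36) or siKeap1 (adjusted p = 0.087). The call was lost without any 1 of the siCont libraries (adjusted p = 0.055 to 0.080), without siFem1b/Keap1 replicate 1 (0.077) or 3 (0.074), with counts of the first run only (0.37), with protein-coding transcripts only (0.056) and with a replicate block (0.055). Ptbp1-216, the main protein-coding transcript, made up 77.9, 77.1 and 77.8% of the gene's counts in siFem1b/Keap1, 75.2, 73.99 and 73.6% in siFem1b and 76.6, 77.4 and 78.1% in siKeap1, against 71.98, 71.4 and 72.4% in siCont. Each depleted group lay above siCont, and the log2 ratio changed by 0.44, SE 0.074, adjusted p = 0.012 in siFem1b/Keap1. Ptbp1-201, annotated as a target of NMD and named here after its values were seen, made up 4.899, 5.71 and 4.37% of the gene's counts in siFem1b/Keap1, 6.65, 5.11 and 6.602% in siFem1b and 6.48, 7.67 and 6.23% in siKeap1, against 8.52, 8.65 and 7.34% in siCont. All siFem1b/Keap1 libraries lay below all siCont libraries (log2 ratio change -0.76, SE 0.16, adjusted p = 0.029). In Ptbp2, the protein-coding Ptbp2-213 made up 30.5, 25.1 and 31.7% of the gene's counts in siFem1b/Keap1, 27.8, 33.7 and 30.97% in siFem1b and 39.2, 35.9 and 33.7% in siKeap1, against 41.4, 40.98 and 40.9% in siCont. Its log2 ratio changed by -0.74, SE 0.17, adjusted p = 0.043 in siFem1b/Keap1, while the gene as a whole missed the threshold (adjusted p = 0.070).

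**Figure D2:**
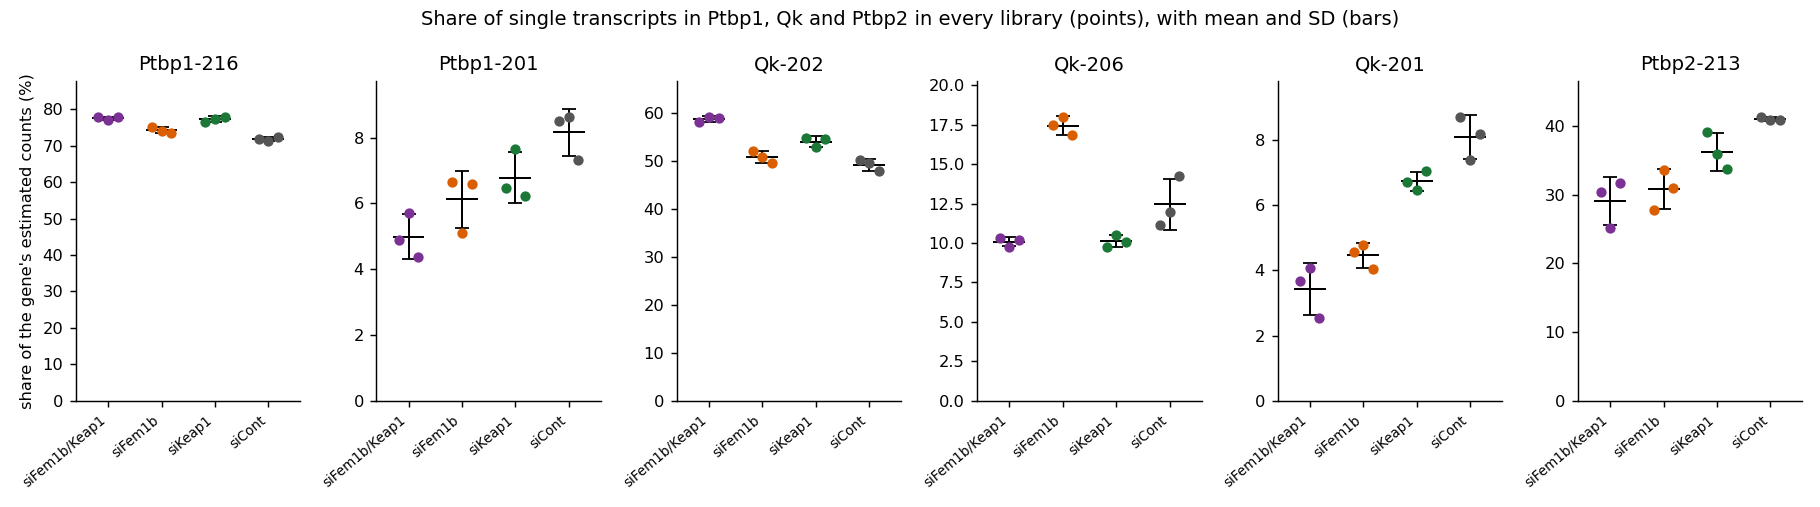
Share of the gene's estimated counts taken by 6 transcripts of Ptbp1, Qk and Ptbp2 in every library (vertical axes, percent, each from 0), for siFem1b/Keap1, siFem1b, siKeap1 and siCont from left to right; points are libraries and bars the mean and SD of 3. Qk-206 stands above 16% in siFem1b and below 15% in every other library, and Qk-201 and Ptbp1-201 are lowest in siFem1b/Keap1.

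The muscleblind-like genes did not move together. Mbnl1 encodes the main muscleblind-like protein of adult muscle and lies on chromosome 3 (GRCm38, plus strand, 60472830 to 60629750). It had 276, 274 and 247 CPM in the siFem1b/Keap1 libraries, 295, 327 and 289.7 CPM in siFem1b and 322, 329 and 305 CPM in siKeap1, against 329, 313 and 365 CPM in siCont. The siFem1b/Keap1 libraries lay below those of the other groups, which overlapped each other. The level was 1.26-fold lower in siFem1b/Keap1 than in siCont (log2 fold change -0.34, SE 0.060, adjusted p = 0.00011). In siFem1b the log2 fold change was -0.14 (adjusted p = 0.047), a call lost under 16 of 24 alternatives. The libraries without which it was lost are siCont replicates 1 and 3, siKeap1 replicates 1 and 2, siFem1b replicates 1 and 3 and siFem1b/Keap1 replicates 1 and 2, with adjusted p-values from 0.050 to 0.23. In siKeap1 it was -0.08 (95% interval -0.21 to 0.06, adjusted p = 0.35). Against siFem1b, siFem1b/Keap1 was 1.14-fold lower (adjusted p = 0.017), a call lost under 4 of 24 alternatives. Among them were fits without siFem1b replicate 2 (adjusted p = 0.0535) and without siFem1b/Keap1 replicate 3 (adjusted p = 0.051).

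Mbnl2, a close relative of Mbnl1 on chromosome 14 (GRCm38, plus strand, 120275669 to 120431697), was higher in each depleted group. Its libraries stood at 214, 220.1 and 207 CPM in the siFem1b/Keap1 libraries, 208, 200.2 and 195 CPM in siFem1b and 229, 231 and 239.6 CPM in siKeap1, against 190.2, 176 and 192 CPM in siCont. Every depleted library lay above the siCont libraries, and siKeap1 lay highest. The level was 1.25-fold higher in siKeap1 (log2 fold change 0.33, SE 0.041, adjusted p = 3.3e-06), 1.15-fold higher in siFem1b/Keap1 (log2 fold change 0.20, SE 0.041, adjusted p = 0.00029) and 1.08-fold higher in siFem1b (log2 fold change 0.11, SE 0.041, adjusted p = 0.024). The siFem1b call was lost under 4 of 24 alternatives. Among them were fits without siCont replicate 2 (adjusted p = 0.13), without siFem1b replicate 1 (adjusted p = 0.11) and with an offset for transcript length (adjusted p = 0.19). With both receptors depleted the level was below that of siKeap1 (1.09-fold, adjusted p = 0.013), a call lost under 5 of 24 alternatives. Among them were a fit without siKeap1 replicate 3 (adjusted p = 0.056) and scaling by library totals alone (adjusted p = 0.54).

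Mbnl3 encodes the muscleblind-like protein of proliferating myoblasts, which is known to restrain differentiation, and lies on the X chromosome (GRCm38, minus strand, 51117269 to 51206532). It had 19.5, 20.8 and 19.4 CPM in the siFem1b/Keap1 libraries, 16.9, 20.5 and 15.8 CPM in siFem1b and 37.1, 36.7 and 37.7 CPM in siKeap1, against 34.5, 33.1 and 38.8 CPM in siCont. All libraries given the siRNA against Fem1b lay at 15.8 to 20.8 CPM, below all others. The level was 2.01-fold lower in siFem1b than in siCont (log2 fold change -1.004, SE 0.079, adjusted p = 5.3e-09) and 1.78-fold lower in siFem1b/Keap1 (log2 fold change -0.84, SE 0.078, adjusted p = 3.5e-08). In siKeap1 the log2 fold change was 0.07 (95% interval -0.11 to 0.24, adjusted p = 0.52). Between siFem1b/Keap1 and siFem1b it was 0.17 (adjusted p = 0.11, but 0.0037 without siFem1b replicate 2, the highest of its group).

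Of the muscleblind-like genes, Mbnl2 passed the test of transcript shares in siFem1b against siCont (adjusted p = 0.032), through Mbnl2-208, named after its values were seen, which took 6.22, 6.47 and 7.403% of the gene's counts in siFem1b/Keap1, 4.13, 4.84 and 5.03% in siFem1b and 8.41, 8.41 and 7.38% in siKeap1, against 7.36, 8.97 and 9.14% in siCont. The log2 ratio of this transcript changed by -0.92, SE 0.14, adjusted p = 0.018, and siFem1b lay below every library of the other groups. The call for the gene was lost without any library other than siCont replicate 1 and siFem1b/Keap1 replicate 3. The retained-intron transcript Mbnl3-206, likewise named afterwards, made up 7.95, 8.15 and 5.29% of the gene's counts in siFem1b/Keap1, 6.57, 7.02 and 7.44% in siFem1b and 3.23, 3.63 and 2.79% in siKeap1, against 3.41, 2.94 and 3.398% in siCont. The libraries of both groups given the siFem1b siRNA lay above all others. The log2 ratio change against siCont was 1.17, SE 0.25, adjusted p = 0.031 in siFem1b/Keap1, and 1.18, SE 0.25 in siFem1b, where it missed the threshold (adjusted p = 0.051). Mbnl3 as a gene missed it in siFem1b/Keap1 (adjusted p = 0.051) and in siFem1b (adjusted p = 0.081). Both Mbnl1 and Mbnl2 carry a coding exon of 54 bases, known to steer the protein to the nucleus and to be held out by muscleblind-like proteins themselves, and 46 of its 54 bases (85.2%) are the same in both genes. This exon was chosen after its values were seen, and its inclusion in Mbnl1 was 38.5, 36.03 and 40.96% in siFem1b/Keap1, 33.1, 34.9 and 38.9% in siFem1b and 36.1, 43.4 and 39.04% in siKeap1, against 41.3, 40.9 and 42.5% in siCont. In Mbnl2 it was 23.1, 22.5 and 26.9% in siFem1b/Keap1, 24.9, 21.1 and 20.6% in siFem1b and 23.3, 23.99 and 24.2% in siKeap1, against 23.7, 24.9 and 22.2% in siCont, and the groups overlapped. The Mbnl1 values depend in part on short transcripts. With transcripts of at least 1000 bases alone, inclusion in Mbnl1 averaged 34.4% in siFem1b/Keap1, 30.5% in siFem1b and 32.1% in siKeap1, against 35.1% in siCont.

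The CELF genes went in different directions. Celf1, on chromosome 2 (GRCm38, plus strand, 90940382 to 91019497), encodes a protein that promotes fetal exon choices in muscle and the decay of mRNAs with GU-rich elements. It had 78.3, 77.9 and 74.9 CPM in the siFem1b/Keap1 libraries, 84.9, 86.1 and 81.5 CPM in siFem1b and 87.5, 87.3 and 84.1 CPM in siKeap1, against 102, 94.97 and 104 CPM in siCont. All depleted libraries lay below all siCont libraries. The level was 1.31-fold lower in siFem1b/Keap1 than in siCont (log2 fold change -0.38, SE 0.042, adjusted p = 1.7e-07), 1.195-fold in siFem1b (log2 fold change -0.26, SE 0.042, adjusted p = 3.1e-05) and 1.17-fold in siKeap1 (log2 fold change -0.22, SE 0.042, adjusted p = 0.00031). Between siFem1b and siKeap1 the log2 fold change was -0.04 (95% interval -0.13 to 0.06, adjusted p = 0.48). The siFem1b/Keap1 level was 1.120-fold below siKeap1 (adjusted p = 0.0025) and 1.09-fold below siFem1b (adjusted p = 0.022). The last call was lost under 6 of 24 alternatives. Among them were fits without siFem1b replicate 1 (adjusted p = 0.054), without siFem1b/Keap1 replicate 3 (adjusted p = 0.055), with an offset for transcript length (adjusted p = 0.053) and with counts of the first run by themselves (adjusted p = 0.12).

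Celf2, also on chromosome 2 (GRCm38, minus strand, 6539694 to 7509563), encodes a related protein found in muscle and brain. Its libraries stood at 143, 144 and 134 CPM in the siFem1b/Keap1 libraries, 168, 183 and 175 CPM in siFem1b and 102, 105 and 103 CPM in siKeap1, against 125, 119 and 130.4 CPM in siCont. No 2 of the 4 groups overlapped, and their order was siFem1b, siFem1b/Keap1, siCont and siKeap1 from high to low. The level was 1.41-fold higher in siFem1b than in siCont (log2 fold change 0.49, SE 0.044, adjusted p = 1.3e-08) and 1.13-fold higher in siFem1b/Keap1 (log2 fold change 0.17, SE 0.044, adjusted p = 0.0019), but 1.21-fold lower in siKeap1 (log2 fold change -0.28, SE 0.044, adjusted p = 4.8e-05). Addition of the siKeap1 siRNA to siFem1b gave a 1.25-fold lower level (adjusted p = 8.3e-06). In the test of transcript shares neither CELF gene passed in any of the 7 comparisons. Of single transcripts, Celf1-203 averaged 27.1% of the gene's counts in siFem1b/Keap1, 19.9% in siFem1b and 10.8% in siKeap1, against 13.96% in siCont, with a log2 ratio change of 1.63, SE 0.32, adjusted p = 0.031 in siFem1b/Keap1 against siKeap1.

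Rbfox2, on chromosome 15 (GRCm38, minus strand, 77078990 to 77307004), encodes the RBFOX protein of myoblasts, which binds UGCAUG motifs beside exons and is needed for myoblast fusion. It had 297, 303 and 289 CPM in the siFem1b/Keap1 libraries, 328, 346 and 341 CPM in siFem1b and 268, 267 and 268 CPM in siKeap1, against 283, 275 and 287 CPM in siCont. The siFem1b libraries lay above those of every other group, and siKeap1 lay lowest. The level was 1.201-fold higher in siFem1b than in siCont (log2 fold change 0.26, SE 0.035, adjusted p = 2.6e-06). The log2 fold change was 0.07 in siFem1b/Keap1 (95% interval -0.01 to 0.15, adjusted p = 0.075) and -0.07 in siKeap1 (95% interval -0.16 to 0.01, adjusted p = 0.098). The first passed under 5 of 24 alternatives, among them DESeq2 (adjusted p = 0.036) and a fit without siFem1b/Keap1 replicate 3 (adjusted p = 0.044), and the second without siCont replicate 2 (adjusted p = 0.048). The siFem1b/Keap1 level was 1.14-fold below siFem1b (adjusted p = 0.00022) and 1.11-fold above siKeap1 (adjusted p = 0.0012, but 0.51 with an offset for transcript length). Inclusion of its 51-base coding exon, which keeps the reading frame, was 90.1, 88.2 and 85.3% in siFem1b/Keap1, 89.1, 89.4 and 82.8% in siFem1b and 76.95, 83.9 and 73.9% in siKeap1, against 77.4, 79.4 and 71.7% in siCont. Both groups given the siFem1b siRNA lay above siCont without overlap, but the transcripts that span this exon carry only 24.5% of the gene's abundance (counts over effective length).

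Rbm24 encodes an RNA-binding protein of heart and skeletal muscle that promotes muscle exons and stabilises the mRNA of Myog in myoblasts, and lies on chromosome 13 (GRCm38, plus strand, 46418434 to 46431095). It had 28, 33 and 17 counts in the siFem1b/Keap1 libraries (0.7304, 0.8597 and 0.511 CPM), 450, 393 and 448 counts in siFem1b (11.1, 10.96 and 11.8 CPM) and 0 in each siKeap1 library, against 9, 14 and 9 counts in siCont (0.235, 0.446 and 0.22 CPM). The groups did not overlap, and siFem1b stood far above the rest. By its counts, summed over a group and scaled by library size, it was 39.0-fold higher in siFem1b than in siCont (exact Clopper-Pearson 95% bounds 27.5 and 57.2, which cover counting alone; edgeR adjusted p = 5.7e-13). It was 2.45-fold higher in siFem1b/Keap1 (interval 1.61 to 3.83, adjusted p = 0.00073). In siKeap1 it was at least 10.5-fold lower than in siCont, with 3 counts over the group taken as the upper limit of a count of 0 (adjusted p = 1.9e-05). With both receptors depleted it was 15.9-fold lower than in siFem1b (interval 12.6 to 20.2, adjusted p = 1.1e-11) and at least 25.6-fold higher than in siKeap1. The sum of myotube markers given above had the same order of groups, siFem1b, siFem1b/Keap1, siCont and siKeap1 from high to low, and its part in these values was not tested.

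Myog, the gene of myogenin, a transcription factor of differentiating muscle, had the same order of groups. Myog is itself among the myotube markers of that sum, as is Myh3 below, so their order and that of the sum are not separate observations. In siFem1b, Myog averaged 59.3 CPM of a sum of 85.0 to 95.4 CPM. Of the other myotube markers, Ckm and Tnnt3 had this order too, while Myh1, Myh4, Myh8 and Actn2 did not. Myog had 550 counts over the siFem1b/Keap1 libraries, 6792 in siFem1b and 4 in siKeap1, against 171 in siCont. It was thus 38.4-fold higher in siFem1b than in siCont (95% exact interval 33.0 to 44.9, counting error only) and 11.9-fold lower in siFem1b/Keap1 than in siFem1b (10.9 to 12.95). Over the 12 libraries, the gene with the pattern most like that of Rbm24 among 9911 genes with a symbol and a mean of at least 5 CPM was Myh3, the embryonic myosin heavy chain gene (Pearson r = 0.99 on log2 CPM, given without a test). Myh3 averaged 2.47 CPM in siFem1b/Keap1, 17.6 in siFem1b and 0.599 in siKeap1, against 1.65 in siCont. It reached the mean of 5 CPM only through siFem1b, where Rbm24 was also high, so the filter favours genes with such a pattern. S1pr3, a sphingosine-1-phosphate receptor gene, and Adgre5 followed (r = 0.99 each). The points of such a correlation share their group.

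Qk, on chromosome 17 (GRCm38, minus strand, 10202601 to 10319854), had 177, 178 and 163 CPM in the siFem1b/Keap1 libraries, 279, 299.8 and 261 CPM in siFem1b and 224, 227 and 231 CPM in siKeap1, against 282, 265 and 307 CPM in siCont. All siFem1b/Keap1 libraries lay below the rest, siKeap1 lay below siCont, and siFem1b overlapped siCont. The level was 1.65-fold lower in siFem1b/Keap1 than in siCont (log2 fold change -0.72, SE 0.056, adjusted p = 3.0e-09) and 1.25-fold lower in siKeap1 (log2 fold change -0.33, SE 0.055, adjusted p = 0.00013). In siFem1b the log2 fold change was -0.03 (95% interval -0.15 to 0.10, adjusted p = 0.71), and its sign turned under 5 of 24 alternatives. An offset for transcript length made it -0.16 (adjusted p = 0.019). Against siFem1b, siFem1b/Keap1 was 1.62-fold lower (log2 fold change -0.69, SE 0.056, adjusted p = 2.4e-08).

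The makeup of the Qk transcripts changed as well. Qk transcripts end their coding sequence in different exons, which give quaking proteins with different tails. The test of transcript shares called Qk in siFem1b/Keap1 against siCont (adjusted p = 0.0075), against siKeap1 (adjusted p = 0.034) and against siFem1b (adjusted p = 0.033), and in siFem1b against siKeap1 (adjusted p = 0.0083). Qk-202, annotated as a target of NMD, made up 58.3, 59.3 and 58.96% of the gene's counts in siFem1b/Keap1, 52.05, 50.8 and 49.6% in siFem1b and 54.9, 52.9 and 54.6% in siKeap1, against 50.4, 49.6 and 47.9% in siCont. Its log2 ratio to the other transcripts changed by 0.56, SE 0.084, adjusted p = 0.0063 in siFem1b/Keap1 against siCont, with no overlap. Qk-206, protein-coding and with the same coding end as Qk-202, made up 10.3, 9.75 and 10.2% of the gene's counts in siFem1b/Keap1, 17.5, 18.03 and 16.8% in siFem1b and 9.74, 10.5 and 10.1% in siKeap1, against 11.2, 11.97 and 14.2% in siCont. It was highest in every siFem1b library, with a log2 ratio change of 0.58, SE 0.12, adjusted p = 0.043 against siCont and of -0.91, SE 0.12, adjusted p = 0.016 in siFem1b/Keap1 against siFem1b. Qk-201, named after its values were seen, made up 3.67, 4.07 and 2.53% of the gene's counts in siFem1b/Keap1, 4.56, 4.78 and 4.04% in siFem1b and 6.703, 6.46 and 7.04% in siKeap1, against 8.73, 7.39 and 8.19% in siCont. Its log2 ratio changed by -1.34, SE 0.18, adjusted p = 0.0033 in siFem1b/Keap1 and by -0.92, SE 0.18, adjusted p = 0.038 in siFem1b. The gene's call in siFem1b/Keap1 against siCont was lost with counts of the first run only (adjusted p = 0.071). That against siKeap1 held only without siFem1b replicate 2 or siFem1b/Keap1 replicate 2 and was lost without any of the other 10 libraries. That against siFem1b held only without siCont replicate 1 or 3 and was lost without any of the other 10.

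**Figure D3:**
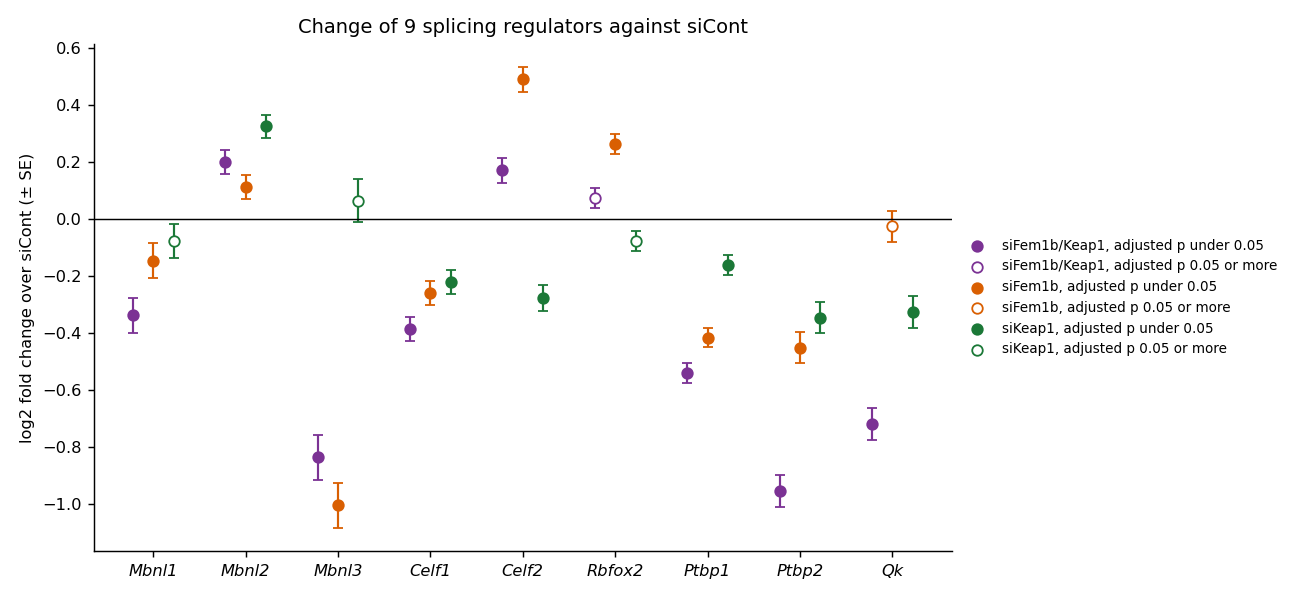
Log2 fold change over siCont (vertical axis, with the SE of the edgeR fit as whiskers) of 9 splicing regulators in siFem1b/Keap1, siFem1b and siKeap1, from left to right for each gene; filled points passed an adjusted p of 0.05. Rbm24 is left out because its siKeap1 libraries held 0 counts. Ptbp1, Ptbp2 and Celf1 are below 0 in each group, Celf2 lies on opposite sides of 0 in siFem1b and siKeap1, and Qk is near 0 in siFem1b alone.

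The design allows a test of whether the change with the siKeap1 siRNA differs when Fem1b is depleted too (the interaction). Of the 10 regulators 2 passed, where 11.4% of all genes did, with 0 higher (6.11%) and 2 lower (5.32%). Beside the 0 higher by edgeR, 0 were higher at an unadjusted p under 0.05 and 0 by DESeq2 or limma-voom. Qk had a log2 fold change of -0.72 against siCont with both receptors depleted and a sum of -0.35 over the single depletions, a difference of -0.37 (SE 0.079, adjusted p = 0.0047). For Mbnl2 the values were 0.20 and 0.44, a difference of -0.24 (SE 0.058, adjusted p = 0.011, and 0.094 with an offset for transcript length). For the PTB and CELF genes the combined change lay near the sum of the separate changes, with -0.54 against a sum of -0.57 for Ptbp1, -0.38 against -0.48 for Celf1 and 0.17 against 0.21 for Celf2. For Ptbp2 the values were -0.95 and -0.80 (difference -0.16, SE 0.078, adjusted p = 0.22). A test that misses the threshold does not show that the changes add up.

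Transcript shares as a whole were tested in 9 of the 10 regulators, Rbm24 having too few transcripts with enough counts. In siFem1b/Keap1 against siCont limma called 2 of 9, Ptbp1 and Qk, where 4.63% of all genes passed, and 1 was left without siFem1b/Keap1 replicate 1 or any siCont library. Without siFem1b/Keap1 replicate 3 the Ptbp1 call was lost too (adjusted p = 0.074), while that of Qk stayed (adjusted p = 0.013). In siFem1b against siCont it called 1, Mbnl2 (1.77% of all genes), and in siKeap1 against siCont 0 (0.466%), with 2 regulators at an unadjusted p under 0.05. In siFem1b/Keap1 it called 1 against siKeap1 (2.91%) and 1 against siFem1b (0.324%), Qk in both, and in siFem1b against siKeap1 2 (3.74%), Mbnl2 and Qk. For the interaction it called 0 (0.0405%), with 1 at an unadjusted p under 0.05. The edgeR test of transcript usage, the test first chosen, called 5, 4 and 1 of the 9 in siFem1b/Keap1, siFem1b and siKeap1 against siCont (9.45%, 4.58% and 2% of all genes) and 0 for the interaction (0.699%). In siFem1b/Keap1 it called 4 against siKeap1 (7.83%) and 3 against siFem1b (1.77%), and in siFem1b 6 against siKeap1 (7.52%). It called too many genes in simulated data, so the statements here rest on the limma test, which was added after the data were seen.

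Transcript shares were also looked at in 47 genes known for muscle-regulated alternative exons, of which 43 could be tested. The test covers every transcript with at least 5% of a gene's counts, whichever exon, start or end sets it apart, so a call does not place a change at the known exon. Shares of single exons are given below for Itga7, Pkm and Capzb. In siFem1b/Keap1 against siCont 13 of 43 passed (4.63% of all genes), in siFem1b 5 (1.77%) and in siKeap1 3 (0.466%), beside 18, 6 and 4 by the edgeR test. Over 16 alternatives the counts ran from 7 to 13, from 1 to 5 and from 0 to 4. In siKeap1 0 passed without siCont replicate 1 or 3 or siKeap1 replicate 2, and 1 without siCont replicate 2 or siKeap1 replicate 1. In siFem1b 1 passed without siCont replicate 3, and 2 or 3 without any other library. For the interaction 0 passed by limma (8 at an unadjusted p under 0.05) and 2 by edgeR. These comparisons share the siCont libraries. The 47 genes were listed with earlier results of these data known. The counts beside the shares of all genes are therefore a description and not a test of the list. Whether any of the regulators acts on these genes here was not tested.

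Itga7, which encodes the laminin-binding integrin subunit alpha 7 of muscle, had the smallest p in siFem1b/Keap1 and in siKeap1. It holds an exon of 132 bases or, in its place, an exon of 120 bases in the part of the coding sequence for the extracellular domain. They are shown because this gene led the list, at chr10:128941445-128941576 and chr10:128941822-128941941 (GRCm38, plus strand, from GENCODE M21 transcripts).
Itga7 132-base exon: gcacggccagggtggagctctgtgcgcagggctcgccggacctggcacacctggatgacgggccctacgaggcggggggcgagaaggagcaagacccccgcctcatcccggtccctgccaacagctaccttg
Itga7 120-base exon: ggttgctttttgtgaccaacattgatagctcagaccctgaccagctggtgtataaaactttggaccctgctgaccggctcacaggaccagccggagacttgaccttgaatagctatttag
As a share of the abundance of transcripts with either exon, the 132-base exon made up 70.99, 70.9 and 72.5% in siFem1b/Keap1, 59.7, 55.7 and 57.9% in siFem1b and 59.5, 61.2 and 63.8% in siKeap1, against 48.2, 49.5 and 47.1% in siCont. Every depleted library lay above every siCont library, and siFem1b/Keap1 lay above all others. The log2 ratio of Itga7-202, the transcript with this exon, changed by 1.38 (SE 0.089, adjusted p = 0.00012) in siFem1b/Keap1, by 0.52 (SE 0.089, adjusted p = 0.025) in siFem1b and by 0.75 (SE 0.089, adjusted p = 0.0096) in siKeap1.

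Pkm, the pyruvate kinase gene, holds a pair of mutually exclusive exons of 167 bases, and it was picked here after its values were seen, as PTB proteins are known to hold out the upstream one. The upstream exon, which gives the M1 enzyme of muscle, lies at chr9:59675029-59675195 and the downstream exon, which gives the M2 enzyme of dividing cells, at chr9:59675568-59675734 (GRCm38, plus strand, from GENCODE M21 transcripts). They share 103 of 167 bases (61.7%), and capitals mark the bases that differ.
Pkm upstream exon: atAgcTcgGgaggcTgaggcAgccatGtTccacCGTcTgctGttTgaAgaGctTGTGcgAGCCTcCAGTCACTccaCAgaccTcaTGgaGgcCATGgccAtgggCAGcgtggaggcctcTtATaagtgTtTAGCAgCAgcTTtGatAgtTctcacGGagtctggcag
Pkm downstream exon: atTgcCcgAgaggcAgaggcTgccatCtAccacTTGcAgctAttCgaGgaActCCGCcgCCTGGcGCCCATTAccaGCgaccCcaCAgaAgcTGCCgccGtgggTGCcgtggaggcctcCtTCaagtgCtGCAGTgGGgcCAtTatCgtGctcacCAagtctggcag
The share of transcripts with the upstream exon was 13.4, 13.2 and 12.8% in siFem1b/Keap1, 7.47, 9.59 and 8.78% in siFem1b and 10.2, 11 and 8.86% in siKeap1, against 6.45, 6.99 and 7.48% in siCont. The siFem1b/Keap1 libraries lay above all others, siKeap1 lay above siCont, and siFem1b overlapped siCont through its library at 7.47%. The log2 ratio of Pkm-202 changed by 1.01 (SE 0.13, adjusted p = 0.0026) in siFem1b/Keap1 against siCont. As a gene, Pkm passed there (adjusted p = 0.0019) but not in siFem1b (adjusted p = 0.28) or siKeap1 (adjusted p = 0.13).

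In Capzb, the gene of a subunit that caps actin filaments, a 113-base exon was picked after its values were seen. The share of transcripts with it was 3.15, 3.52 and 2.73% in siFem1b/Keap1, 5.42, 6.54 and 6.14% in siFem1b and 4.57, 3.93 and 5.17% in siKeap1, against 8.36, 10.1 and 9.02% in siCont. All depleted libraries lay below siCont, and Capzb passed in siFem1b/Keap1 (adjusted p = 0.00075) and siKeap1 (adjusted p = 0.022) but not in siFem1b (adjusted p = 0.099). The share of this exon was thus lower in siFem1b/Keap1, where that of the upstream Pkm exon was higher. Which form of Capzb or Itga7 is that of muscle is not given here, so no common direction toward muscle forms is to be read from these genes. In Ttn, the gene of the giant sarcomere protein titin, Ttn-202 made up 10.5 ± 0.316% in siFem1b/Keap1, 8.25 ± 0.781% in siFem1b, 30.9 ± 2.14% in siKeap1, against 32.7 ± 3.11% in siCont (SD, n = 3). Ttn as a gene averaged 110 CPM in siFem1b/Keap1, 207 in siFem1b and 39.6 in siKeap1, against 40.4 in siCont (log2 fold change 1.44, adjusted p = 1.3e-07 in siFem1b/Keap1 and 2.35, adjusted p = 2.4e-09 in siFem1b). On the CPM scale Ttn-202 itself stood at 11.6 ± 0.219 CPM in siFem1b/Keap1, 17.0 ± 1.15 CPM in siFem1b and 12.2 ± 1.44 CPM in siKeap1, against 13.1 ± 1.45 CPM in siCont, and the other Ttn transcripts together at 98.5 ± 1.93 CPM in siFem1b/Keap1, 189.9 ± 6.96 CPM in siFem1b and 27.3 ± 2.10 CPM in siKeap1, against 27.4 ± 6.397 CPM (SD, n = 3) in siCont. The low share of Ttn-202 in both groups given the siFem1b siRNA went with a higher level of the other transcripts, with Ttn passing the test of shares in siFem1b/Keap1 (adjusted p = 0.00028) and in siFem1b (adjusted p = 0.00031) and not in siKeap1 (adjusted p = 0.79). Fhl1-204, a transcript of the LIM domain gene Fhl1, made up 19.9 ± 3.14% in siFem1b/Keap1, 10.3 ± 2.11% in siFem1b, 4.15 ± 0.861% in siKeap1, against 3.15 ± 0.734% in siCont. Fhl1 passed in siFem1b/Keap1 (adjusted p = 0.00072) and in siFem1b (adjusted p = 0.016). In Fn1, the fibronectin gene, shares passed in siFem1b (adjusted p = 0.036) and in siKeap1 (adjusted p = 0.024) and not in siFem1b/Keap1 (adjusted p = 0.77).

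**Figure D4:**
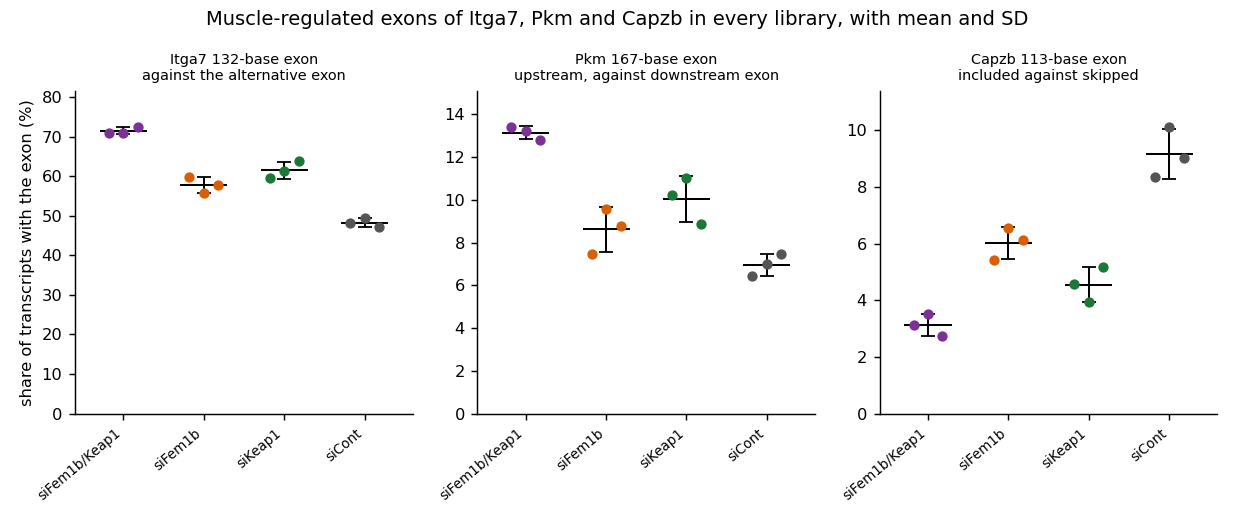
Share of transcripts that hold the 132-base exon of Itga7 (against the 120-base exon), the upstream 167-base exon of Pkm (against the downstream exon) and the 113-base exon of Capzb (against its skipping), in percent of transcript abundance, in every library of siFem1b/Keap1, siFem1b, siKeap1 and siCont from left to right; points are libraries and bars the mean and SD of 3. The siFem1b/Keap1 libraries stand at 70.9 to 72.5% for Itga7 and 12.8 to 13.4% for Pkm, above all other libraries. For Capzb they stand at 2.73 to 3.52%, below all other libraries.

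The levels of other splicing factors give the setting, in lists that were chosen with earlier results of these data known. Of 14 genes of SR proteins, which mostly promote exon inclusion, 14 were lower in siFem1b/Keap1 than in siCont (33.7% of all genes were lower), 14 in siFem1b (32.1%) and 10 in siKeap1 (23.8%). Of 23 genes of hnRNP proteins, a class that often represses exons, 22, 21 and 18 were lower in siFem1b/Keap1, siFem1b and siKeap1. None of either list was called higher in these comparisons by edgeR, by an unadjusted p under 0.05, by DESeq2 or by limma-voom. The median log2 fold change of the SR genes was -0.54 in siFem1b/Keap1, -0.31 in siFem1b and -0.21 in siKeap1, and that of the hnRNP genes -0.53, -0.35 and -0.17, beside 0.01, -0.01 and -0.02 over all genes. Srsf2 was 1.801-fold lower in siFem1b/Keap1 (265 CPM, against 477 in siCont) and 1.44-fold lower in siFem1b, Srsf11 1.61-fold in siFem1b/Keap1 and 1.55-fold in siKeap1, and Srsf7 1.71, 1.38 and 1.21-fold in siFem1b/Keap1, siFem1b and siKeap1. Hnrnpa1, whose protein acts with PTB on the Pkm exons, was 1.62-fold lower in siFem1b/Keap1 and 1.28-fold lower in siKeap1, and Hnrnpa3 1.703-fold in siFem1b/Keap1 and 1.503-fold in siFem1b. Scaling by library totals alone moved the median of all genes by 0.12 in siFem1b/Keap1 against siCont, where the medians were then -0.41 for both lists, and 1 hnRNP gene was then called higher there and 1 in siFem1b.

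**Figure D5:**
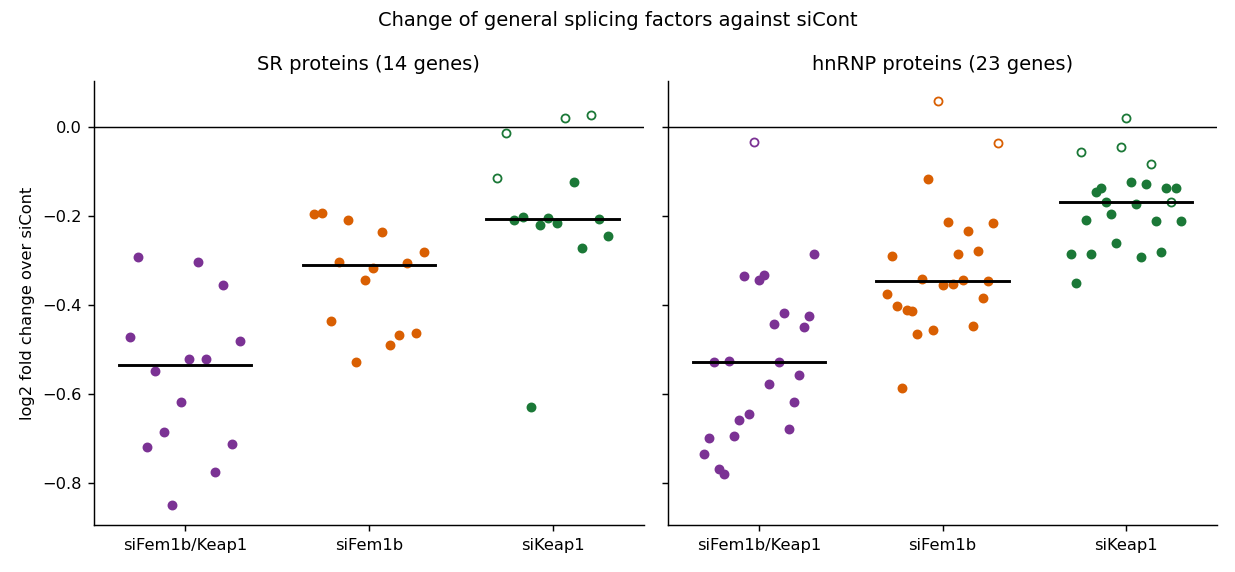
Log2 fold change over siCont (vertical axis) of 14 SR protein genes and 23 hnRNP protein genes in siFem1b/Keap1, siFem1b and siKeap1; each point is a gene, filled where the adjusted p is under 0.05, and the black line is the median. The medians are -0.54, -0.31 and -0.21 for SR genes and -0.53, -0.35 and -0.17 for hnRNP genes.

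Among 12 further genes of the same families, 9 were tested, and 3 were higher and 4 lower in siFem1b/Keap1 (33.8% and 33.7% of all genes), 3 and 4 in siFem1b (30% and 32.1%) and 2 and 1 in siKeap1 (18.4% and 23.8%). By library totals alone the split in siFem1b/Keap1 was 4 and 2. Ptbp3, a further PTB paralogue, fell 2.103-fold in siFem1b/Keap1 (91.5 CPM, against 192 in siCont; adjusted p = 9.0e-08), 1.67-fold in siFem1b and 1.26-fold in siKeap1. Raver1, which encodes a partner of PTB proteins, was 1.24-fold lower in siFem1b/Keap1 and 1.18-fold lower in siFem1b. Rbm47 rose 3.55-fold in siFem1b/Keap1 (10.5 CPM, against 2.94 in siCont), 2.09-fold in siFem1b and 2.44-fold in siKeap1. Celf5 rose 3.75-fold in siFem1b/Keap1 and 4.55-fold in siFem1b, at 4.09 and 4.94 CPM, against 1.09 CPM in siCont. Of 26 further regulators linked to tissues, 20 were tested, and 5 were higher and 11 lower in siFem1b/Keap1, 5 and 10 in siFem1b and 3 and 7 in siKeap1. By library totals alone the splits were 5 and 8 in siFem1b/Keap1, 6 and 7 in siFem1b and 4 and 6 in siKeap1. Zfp36l1, which encodes a protein that destabilises AU-rich mRNA, was 1.49-fold higher in siFem1b/Keap1 and 1.78-fold higher in siFem1b but 1.23-fold lower in siKeap1, the order that Celf2 also had. Tardbp, which encodes TDP-43, was 1.54, 1.37 and 1.16-fold lower in siFem1b/Keap1, siFem1b and siKeap1.

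Likeness of pattern was also looked up for Mbnl3 and Ptbp2, which with Rbm24 had the widest range of group means. For Mbnl3 the closest genes over the 12 libraries included Ppp2r2a, a regulatory subunit gene of the phosphatase PP2A (Pearson r = 0.995 on log2 CPM), and Sacm1l (0.993). Ppp2r2a averaged 103 CPM in siFem1b/Keap1, 100.3 in siFem1b and 142 in siKeap1, against 139 in siCont, so it too was low in both groups given the siFem1b siRNA. For Ptbp2 they were Atad2, a chromatin factor gene of dividing cells, the spindle checkpoint gene Bub1b and Ube3c (0.99 each). Bub1b averaged 81.9 CPM in siFem1b/Keap1, 123 in siFem1b and 133 in siKeap1, against 175 in siCont, the same order of groups as Ptbp2. These values are given without a test, and the libraries of a group share its siRNA.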

How the data were processed

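RNA of 12 C2C12 samples was measured by poly(A) RNA-seq, in 4 siRNA groups of 3 libraries with 2 runs each, and groups were taken from the sample labels. Per the submitters' processing notes, the authors used kallisto 0.44.0 and mm10, and the deposited tables give estimated counts and TPM for 118489 transcripts per run. Strandedness is not given in the sources used here. Of the transcripts 98.5% matched GENCODE M21 (GRCm38), and the others held 0.606% to 0.640% of the counts. The estimated counts as deposited were added over a gene's transcripts and both runs and rounded. The TPM that the authors deposited were not used for tests.

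Genes were filtered with filterByExpr, scaled by TMM (factors 0.952 to 1.04) and tested in 7 comparisons with edgeR 4.0.16 (robust quasi-likelihood, 1 term per group, Benjamini-Hochberg over 14577 genes, threshold 0.05) in R 4.3.3. DESeq2 1.42.0 and limma-voom (limma 3.58.1) were alternatives. In data simulated for siKeap1 against siCont (9618 genes, 200 of them changed) the edgeR test of transcript usage, chosen first, made 202 calls, 95 of them false. So limma was run, for transcripts with at least 5% of a gene's counts, on the log2 ratio of a transcript's counts to those of the rest of the gene (offset 0.5), with a Simes p per gene and Benjamini-Hochberg adjustment over 9865 genes. On the same simulated data it made 101 calls, 8 of them false, and found 93 of the 200. The gene test, on counts simulated for the same comparison (14330 genes), found 74 of 100 genes changed 1.5-fold and 79 of 100 changed 2-fold, with 7 false of 160 calls. Replicate numbers were not taken to pair the libraries. Of 18 same-numbered pairs 6 had a correlation of deviations over 0.1, and these 18 ran from -0.53 to 0.42. The 36 pairs with other numbers ran from -0.58 to 0.55. Counting intervals cover counting error only.

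All 10 regulators were named. From each list up to 4 genes with the smallest p in a comparison with siCont could be named, transcripts from a 10% share of the gene upward, exons by a spread of at least 10 percentage points between group means or by a known pair, and, for the 3 regulators with the widest range, the 3 genes most alike in pattern. Not every gene found by the last rule is reported here. Exceptions are given as chosen after their values were seen. The 10 regulators and all gene lists were chosen with earlier results of these data known. Alternatives covered scaling, tool, filter, transcript length, runs, replicate number, threshold and each library left out.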

Additional observations from a re-analysis of the deposited data

Results flagged for a closer look

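The change with the siRNA against Keap1 differed with the state of Fem1b for 2 of the 10 regulators, by the interaction term of the edgeR fit. For Qk, the log2 change with that siRNA was -0.69 when Fem1b was depleted too and -0.33 when it was not, a difference of -0.37 (SE 0.079, adjusted p = 0.0047). For Mbnl2 it was 0.09 with Fem1b depleted and 0.33 without, a difference of -0.24 (SE 0.058, adjusted p = 0.011, and 0.094 with an offset for transcript length). Both differences were below 0 with any of the 12 libraries left out.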

How the results depend on the processing

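Of 167 recounts of the regulators called by edgeR, 165 were within 1.5 times the reported count. The interaction count was 1 at an adjusted p under 0.01 and 1 with the length offset. With each library left out, the calls against siCont numbered 9 to 10 for siFem1b/Keap1, 7 to 9 for siFem1b and 7 to 8 for siKeap1, with 9 to 10 in siFem1b/Keap1 against siKeap1, 6 to 8 against siFem1b, 7 to 9 in siFem1b against siKeap1, and 2 to 2 for the interaction. Of 1669 recomputed log2 fold changes 1600 kept direction and side of the threshold, 40 lost a call, 16 gained one and 13 changed sign, none of them called. The last were Mbnl3 in siKeap1 against siCont (-0.009667, length offset), Qk in siFem1b against siCont (0.07362 by library totals, 0.03099 with at least 5 CPM in 3 libraries, 0.02219 in the first run, and from -0.07728 to 0.03143 over the left-out libraries), Mbnl1 and Celf1 in siFem1b against siKeap1 by library totals (0.001473 and 0.03413), and in the interaction Mbnl3 (from -0.008042 to 0.1819 over left-out libraries), Ptbp1 (-0.01131 in the second run, from -0.02478 to 0.05338 over left-out libraries) and Ptbp2 (0.03169, length offset).

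Transcript results were less stable. Of 112 recounts by limma 54 were within 1.5 times. In siFem1b against siCont the count was 0 in the first run, 0 in the second run and 2 with protein-coding transcripts only. In siFem1b/Keap1 against siCont it was 0 in the first run and 1 with protein-coding transcripts, against siKeap1 0 in the first run, and against siFem1b 0 in the first run and 0 with protein-coding transcripts. In siFem1b against siKeap1 it was 0 in the first run and 1 in the second. With each library left out it ran against siCont from 1 to 2 for siFem1b/Keap1, 0 to 2 for siFem1b and 0 to 0 for siKeap1, 0 to 2 in siFem1b/Keap1 against siKeap1, 0 to 1 against siFem1b, 1 to 3 in siFem1b against siKeap1 and 0 to 0 for the interaction. The edgeR usage test gave 55 of 80 recounts within 1.5 times. Against siCont it called for siFem1b/Keap1 3 at an adjusted p under 0.01, 2 in the first run and 3 in the second, for siFem1b 1 in the first run and 8 by limma diffSplice, for siKeap1 0 at 0.01, 0 in the first run and 0 in the second, and 1 for the interaction in the second run. With each library left out it called 3 to 6 for siFem1b/Keap1, 2 to 6 for siFem1b and 0 to 1 for siKeap1 against siCont, and 0 to 1 for the interaction. The causes were not tested.

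With a replicate block the gene calls against siCont were 9 for siFem1b/Keap1, 8 for siFem1b and 7 for siKeap1, 10, 8 and 7 in the other pairwise comparisons and 2 for the interaction. With that replicate block, limma called against siCont 1 for siFem1b/Keap1, 0 for siFem1b and 0 for siKeap1, 0 and 0 in siFem1b/Keap1 against siKeap1 and siFem1b and 1 in siFem1b against siKeap1, and edgeR usage called 3, 4 and 0 against siCont for siFem1b/Keap1, siFem1b and siKeap1. Of the 12 libraries 2 correlated best with their own number.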
